A study of Arabidopsis thaliana with 16 samples.

Results

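The wall-associated kinase genes WAK1 (AT1G21250), WAK2 (AT1G21270), WAK3 (AT1G21240), WAK4 (AT1G21210) and WAK5 (AT1G21230) form a tandem array on chromosome 1 of Arabidopsis thaliana, and WAKL10 (AT1G79680) is a related gene farther along that chromosome. These 6 genes, out of 33602 in each deposited count table, were taken by their identifiers in all 16 libraries. They were chosen by their counts at 24 h: earlier results of these data showed the array high after 24 h of the proteasome inhibitor MG132, with WAK3 seen there alone. Their 24 h values, and the 3 h values of WAK3, are therefore given as description with no test, as are the 3 h values of WAKL10, which passed the filter on low counts only through the groups where it was high. WAK1 and WAK2 were tested at 3 h and in the mutants. The values of WAK3 and WAKL10 in the mutants are description too, since both passed that filter only through MG132 groups.

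Wall-associated kinases are receptor kinases that cross the plasma membrane and hold on to pectin in the cell wall with their outer part. They sense pectin and its breakdown fragments, the oligogalacturonides, and their kinase part inside the cell passes the signal on to mitogen-activated protein kinases. In Arabidopsis leaves WAK1 is known as a gene raised by salicylic acid and by pathogens, and WAK2 for its part in cell expansion.

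The libraries were made from whole seedlings kept for 5 days in liquid culture with the light always on. Wild-type Col-0 gave 4 libraries without treatment, 4 from seedlings held for 3 h in fresh medium with MG132 at 100 µM, and 4 from seedlings held so for 24 h. Untreated seedlings of rpn10-1 and of rpn12a-1 gave 2 libraries each. RPN10 and RPN12A encode subunits of the regulatory particle of the 26S proteasome, and both alleles are exon-trap insertions whose accession of origin the labels do not give. The design holds no group kept in fresh medium without MG132, so the inhibitor, the medium change and the added hours cannot be told apart. Whether replicates came from separate cultures is not stated, and p-values measure the spread between these libraries, which may be technical.

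Library totals ran from 6646134 to 21762565 counts, and 21205 genes passed the filter on low counts. Levels are in CPM, each count as a share of its library's scaled total in a unit common to all libraries, and means are given ± SD over libraries. The mutated gene was low in each mutant: RPN10 held 21.4 and 22.1 CPM in rpn10-1 (98.6 to 136 CPM in untreated Col-0), and RPN12A held 52.0 and 42.8 CPM in rpn12a-1 (73.6 to 102 CPM). In 8 libraries (replicates 3 and 4 of each Col-0 group and both of rpn12a-1) the labels note an included technical replicate, and the fit held a term for this library set. The rpn10-1 libraries stood farthest apart of all replicate pairs, with a chi-square of 73.7 per degree of freedom over genes against 8.17 for the closest pair. Seed storage transcripts, summed over 4 genes, stood at 0.958 CPM in rpn10-1 replicate 1 and 64.0 CPM in replicate 2.

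The array spans 24.78 kb, from 7423704 to 7448483 on chromosome 1 of TAIR10.1, with all 5 genes on the plus strand in the order WAK4, WAK5, WAK3, WAK1, WAK2. WAK1 lies at 7439171 to 7442113, WAK3 at 7434235 to 7436830 and WAK2 at 7444749 to 7448483, each with 3 exons. WAK4 lies at 7423704 to 7427041 with 4 exons and WAK5 at 7429895 to 7432477 with 3. WAKL10 lies on the minus strand at 29979973 to 29982819 with 3 exons. The coding sequences of the array shared 79.1% (WAK2 and WAK4) to 85.8% (WAK1 and WAK3) of aligned bases, and 59.0% to 60.6% with WAKL10. Reads could thus be shared between copies: of the 50-base windows of the coding sequences, 14.0% in WAK3, 8.99% in WAK1 and 6.05% in WAK2 were found elsewhere in the reference, against 1.15% in WAK4, 0.511% in WAK5 and 0 in WAKL10. The untranslated parts of the transcripts were not examined. The sources used here do not say how such reads were counted. The 3′ end of WAK2 is also overlapped on the other strand by AT1G21280 (7447490 to 7448483), and the library kit does not mark strand.

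The 250 bases before the annotated start are shown for the 4 genes with a clear signal, since WAK1 and WAK3 moved together across libraries while WAKL10 did not follow them. They are from RefSeq TAIR10.1, written 5′ to 3′ on the strand of the gene (plus for the array, minus for WAKL10). Capitals mark TTGAC, the core of the W-box bound by WRKY factors, and TGACG, the core of the as-1 element bound by TGA factors, on either strand (as GTCAA and CGTCA).
WAK1, chr1:7438921-7439170: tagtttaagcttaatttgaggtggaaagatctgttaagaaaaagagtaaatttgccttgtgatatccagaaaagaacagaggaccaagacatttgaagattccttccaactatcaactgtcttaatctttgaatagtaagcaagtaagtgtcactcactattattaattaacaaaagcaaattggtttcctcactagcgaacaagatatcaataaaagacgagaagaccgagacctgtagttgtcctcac
WAK2, chr1:7444499-7444748: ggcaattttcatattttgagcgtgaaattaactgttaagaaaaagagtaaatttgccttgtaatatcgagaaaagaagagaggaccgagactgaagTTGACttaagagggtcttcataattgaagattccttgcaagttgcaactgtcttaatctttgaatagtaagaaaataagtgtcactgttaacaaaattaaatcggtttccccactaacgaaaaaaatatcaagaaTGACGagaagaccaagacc
WAK3, chr1:7433985-7434234: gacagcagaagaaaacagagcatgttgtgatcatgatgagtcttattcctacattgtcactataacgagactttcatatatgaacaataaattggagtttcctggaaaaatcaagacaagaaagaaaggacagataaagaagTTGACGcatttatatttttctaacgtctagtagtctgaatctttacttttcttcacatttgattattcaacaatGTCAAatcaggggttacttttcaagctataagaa
WAKL10, chr1:29982820-29983069: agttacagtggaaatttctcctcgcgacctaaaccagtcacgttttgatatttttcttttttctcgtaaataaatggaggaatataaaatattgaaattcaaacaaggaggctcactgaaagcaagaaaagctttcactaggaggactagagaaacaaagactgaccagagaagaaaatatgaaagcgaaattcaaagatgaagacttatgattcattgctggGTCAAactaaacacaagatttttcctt
The window of WAK3 held TTGAC at 2 places, at 108 and 34 bases before the start, the former overlapping a TGACG. WAK2 held TTGAC once, at 154 bases, and TGACG once, at 19 bases. WAKL10 held TTGAC once, at 27 bases, and WAK1, whose level changed most in CPM, held neither. Among 27443 promoters of the same length, 44.9% held TTGAC at least once, 14.1% held it at least 2 times and 18.6% held TGACG. The windows of WAK1 and WAK2 matched at 86.0% of 221 aligned bases, with a longest shared run of 30 bases, whereas those of WAK1 and WAK3 matched at 62.1% of 198. The closest upstream pair was thus WAK1 and WAK2, while the pair closest in level across libraries was WAK1 and WAK3. The closeness in level rests on the 24 h values by which the genes were chosen, so nothing is read from this contrast. Whether reads shared between the copies had a part in that closeness was not tested.

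WAK1, a pectin receptor, was the member with the highest level in the series. In untreated Col-0 it stood at 1.45, 4.10, 0.65 and 2.07 CPM (replicates 1 to 4), and after 3 h of MG132 at 7.38, 4.82, 3.33 and 2.32 CPM. After 24 h it stood at 254, 176, 135 and 76.5 CPM, so the lowest of these libraries lay above every library of the other groups. The means were 2.07 ± 1.47, 4.46 ± 2.20 and 160 ± 74.6 CPM (SD, n = 4 each), and the fitted log2 fold change at 24 h was 6.31 (SE 0.40), about 79.5-fold. The 3 h libraries overlapped the untreated ones, with a log2 fold change of 1.15 (SE 0.43) that missed the threshold (adjusted p = 0.077, edgeR's quasi-likelihood test, Benjamini-Hochberg over 21205 genes). DESeq2 called this gene at 3 h (log2 fold change 1.13, adjusted p = 0.028).

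WAK2, the member linked to cell expansion, was the most abundant of the array in untreated seedlings. Its levels were 11.1, 13.3, 14.2 and 18.3 CPM untreated and 17.8, 12.1, 10.8 and 10.6 CPM at 3 h, and these groups overlapped. At 24 h it stood at 82.4, 61.6, 52.7 and 34.7 CPM, above every untreated and 3 h library. The group means were 14.2 ± 3.03 CPM without treatment, 12.8 ± 3.40 CPM in the 3 h libraries and 57.9 ± 19.8 CPM in the 24 h libraries (SD, n = 4 each). Fitted log2 fold changes were -0.17 (SE 0.37; 95% interval -0.96 to 0.61, adjusted p = 0.79, edgeR) at 3 h and 1.97 (SE 0.36) at 24 h. AT1G21280, which overlaps its 3′ end, stood at 5.21 to 7.12 CPM untreated, 7.14 to 9.31 CPM at 3 h and 5.08 to 6.46 CPM at 24 h, and did not follow WAK2.

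WAK3, the neighbour of WAK1 most like it in coding sequence, had 0 counts in all 4 untreated libraries. At 24 h its libraries held 200, 193, 225 and 68 counts, or 21.4, 17.5, 14.3 and 4.77 CPM, with a mean of 14.5 ± 7.11 CPM (SD, n = 4). Against a floor of 3 counts over the untreated group, which is 0.0564 CPM, this was at least 257-fold higher. The gene was not wholly confined to 24 h: the 3 h libraries held 4, 0, 0 and 1 counts, rpn10-1 held 3 and 2, and rpn12a-1 held 0. Of its 696 counts 686 were at 24 h. Such floors cover counting error alone, and in whole seedlings fewer cells of a type and less RNA per cell cannot be told apart.

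**Figure D1:**
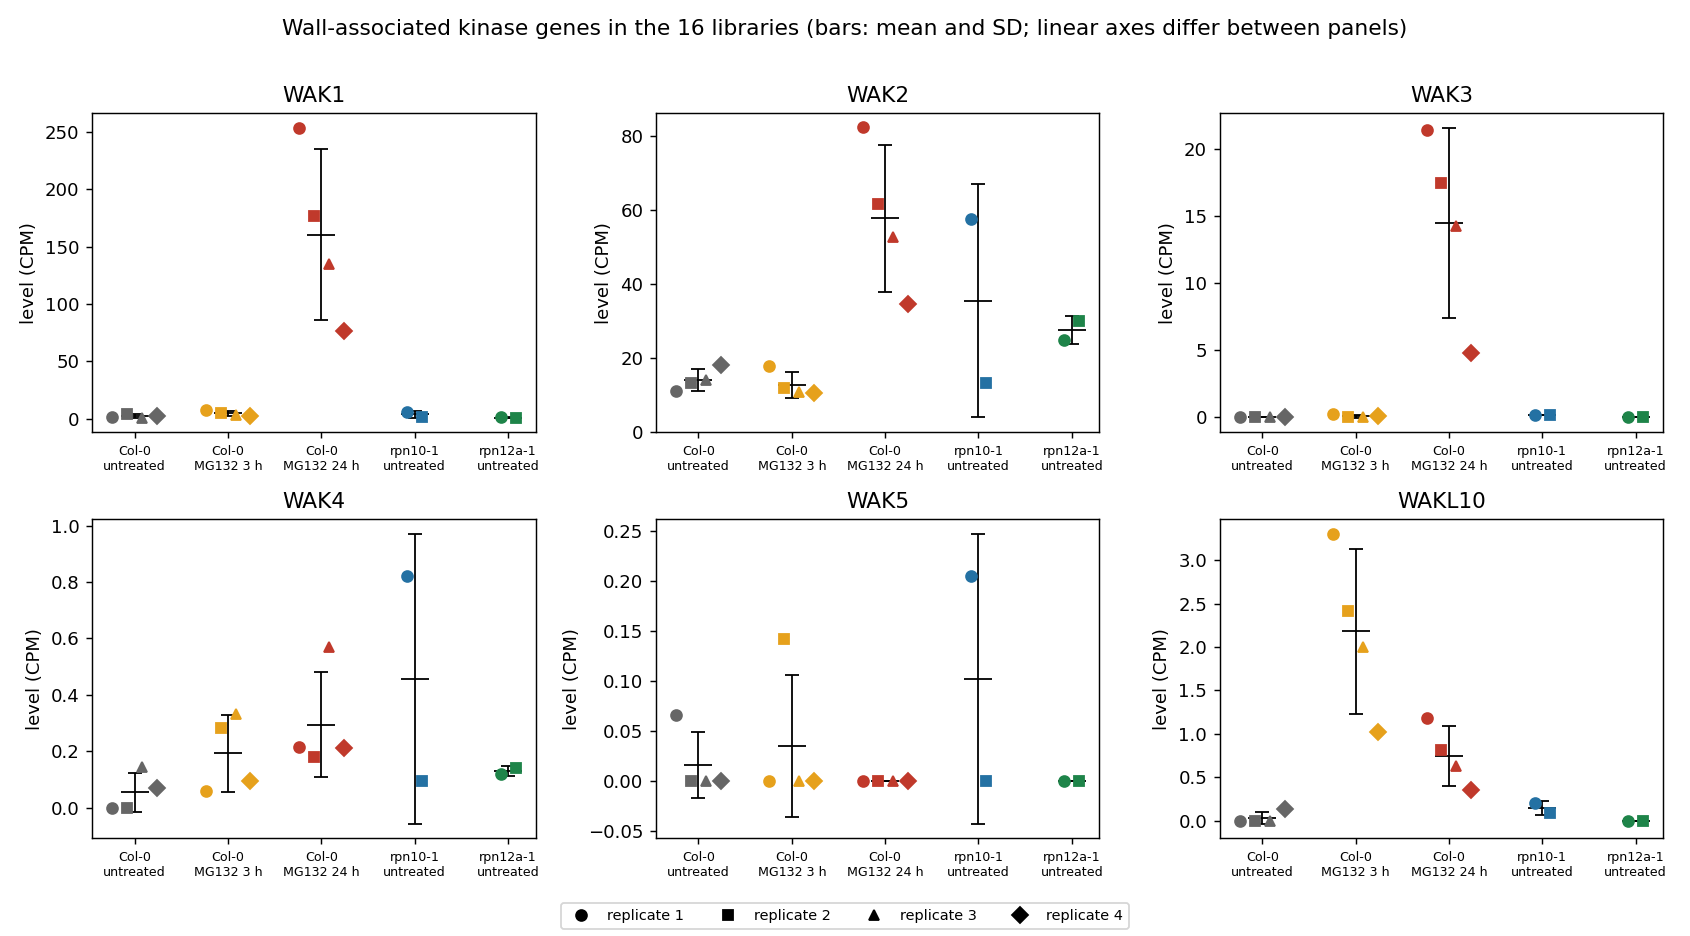
Levels in CPM (vertical axes, linear, different in each panel) of the 6 genes in the 5 groups, with a symbol per library and bars for the mean and SD. At 24 h all 4 libraries of WAK1, WAK2 and WAK3 lie above the untreated and 3 h libraries, while WAKL10 is highest at 3 h, and WAK4 and WAK5 stay below 1 CPM.

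WAK4 and WAK5, at the start of the array, gave 43 and 5 counts over all 16 libraries and did not pass the filter, so they were not tested. WAK4, reported to act in cell elongation, held 3 counts in all untreated libraries, 6 at 3 h, 16 at 24 h, 13 in rpn10-1 and 5 in rpn12a-1. Its level did not exceed 0.821 CPM in any library, and that highest value was in rpn10-1 replicate 1, with 12 counts. WAK5 held 1 count in untreated Col-0, 1 at 3 h, 0 at 24 h, 3 in rpn10-1 and 0 in rpn12a-1. A group of 4 libraries at 24 h with 0 counts allows a level of up to 0.0595 CPM. The 2 genes at that end of the array were therefore near or below what this depth can show, and WAK5 gave no count in the group where WAK1 was highest.

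Of the 6 genes, 4 passed the filter, and WAK3 and WAKL10 did so only through the groups in which they were high. In 5 of the 6 (WAK5 being the exception) the lowest 24 h library lay above the highest untreated one, where 12.7% of all tested genes did so in that direction. Against 3 h the lowest 24 h library was higher in 3 of the 6, namely WAK1, WAK2 and WAK3, beside 7.77% of all tested genes. Both counts come from contrasts that chose the genes, so nothing is read from them.

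Per kilobase of spliced length, on which genes can be roughly compared, the make-up of the array differed between groups. The overlap of WAK2 by AT1G21280 and reads shared between copies were not corrected for, so the shares are approximate. In untreated Col-0 WAK2 held 83.7% of the array's summed mean level of 4.74 CPM per kb, and WAK1 held 15.8%. At 24 h the sum was 80.1 CPM per kb, of which WAK1 held 72.3%, WAK2 20.1% and WAK3 7.47%. In the 3 h group means WAK2 held 67.5% and WAK1 30.4% of a sum of 5.30 CPM per kb. Both genes overlapped their untreated levels at 3 h and edgeR called neither, so a make-up between the other groups is not shown. In the mutants WAK2 still made up most of the array, with 86.0% in rpn10-1 (sum 11.5 CPM per kb) and 95.5% in rpn12a-1 (sum 8.06 CPM per kb). WAK1 at 24 h, at 57.9 ± 26.9 CPM per kb (SD, n = 4), was the highest of all 25 WAK and WAK-like genes examined. In untreated seedlings that place was held by WAKL22, at 8.82 ± 1.23 CPM per kb, and WAK1 stood at 0.747 ± 0.532 CPM per kb.

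**Figure D2:**
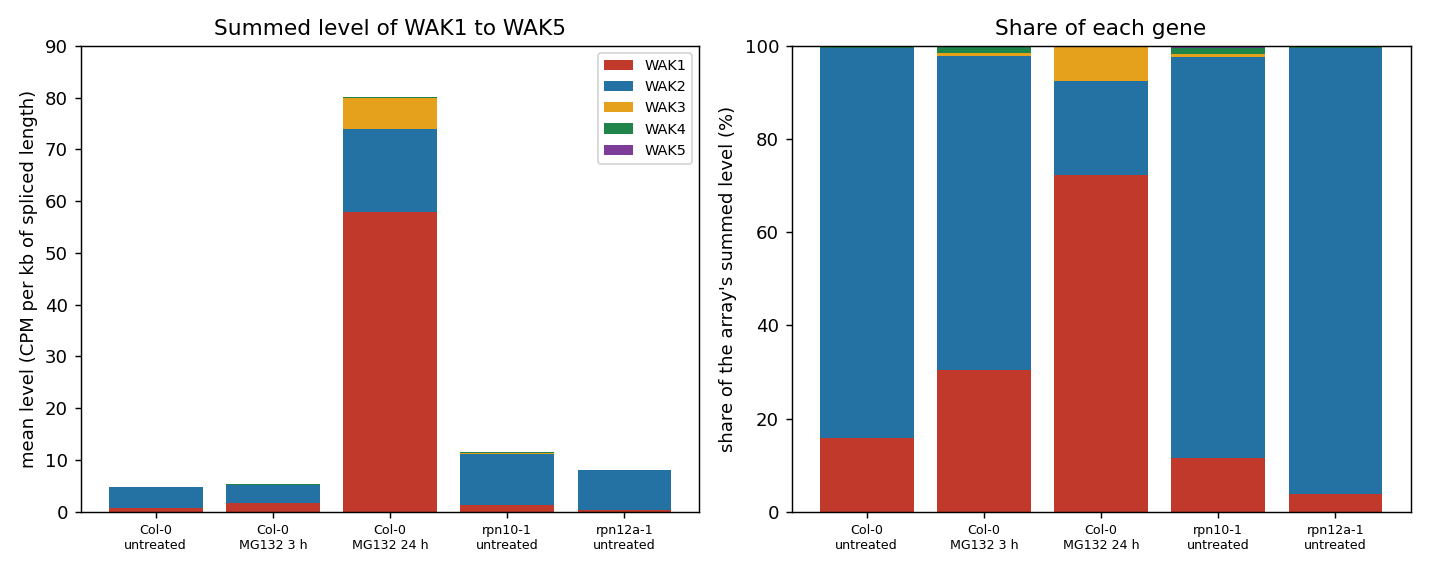
Left, mean level of WAK1 to WAK5 in CPM per kb of spliced length, stacked, for the 5 groups; right, the share of each gene in that sum in percent. WAK2 is the main part of the bar in every group but 24 h MG132, where WAK1 holds 72.3%; bars show group means without error.

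WAKL10, a WAK-like receptor kinase gene outside the array, had another time course. It stood at 0, 0, 0 and 0.14 CPM in untreated Col-0, at 3.31, 2.41, 2.00 and 1.02 CPM after 3 h, and at 1.18, 0.81, 0.63 and 0.35 CPM after 24 h. All 3 h libraries lay above all untreated ones. They overlapped the 24 h libraries only between 1.02 CPM (3 h replicate 4) and 1.18 CPM (24 h replicate 1). The fitted log2 fold change at 3 h was 5.47 (SE 0.67). No p is given for it, since the gene passed the filter only through the groups in which it was high. Of WAK1 and WAK2, the members tested at 3 h, 0 were called by edgeR, beside 17.9% of all tested genes, while WAK1 was called by DESeq2 and had an unadjusted p under 0.05. From 3 h to 24 h its fitted log2 fold change was -1.54 (SE 0.43), against 5.16 for WAK1, 2.14 for WAK2 and 6.90 for WAK3. The gene rests on 137 counts in all, of which 2 were in untreated Col-0 and 96 at 3 h, so the size of the fold change at 3 h is loosely fixed (95% interval 4.04 to 6.91).

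In rpn10-1 neither WAK1 nor WAK2 was called against untreated Col-0 by edgeR, where 23% of all tested genes were called. WAK2 had an unadjusted p under 0.05 there and WAK1 did not. WAK2 stood at 57.8 CPM in replicate 1 and 13.3 CPM in replicate 2, against 11.1 to 18.3 CPM in untreated Col-0. Replicate 1 thus lay within the 24 h range and replicate 2 within the untreated range. The fitted log2 fold change was 1.16 (SE 0.45, 95% interval 0.21 to 2.12, adjusted p = 0.074, edgeR), and DESeq2 called WAK2 (1.18, adjusted p = 0.038). DESeq2 also called WAK3, from which nothing is read. Without replicate 1 the WAK2 value was -0.26 (adjusted p = 0.73), without replicate 2 it was 1.85 (adjusted p = 0.0026), and without untreated Col-0 replicate 4 it was 1.32 (adjusted p = 0.048).

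The other genes of the array differed between the rpn10-1 libraries in the same direction. WAK1 stood at 5.75 and 1.68 CPM and WAK4 at 0.82 and 0.09 CPM, and replicate 1 over replicate 2 came to 3.43 for WAK1, 4.34 for WAK2 and 8.82 for WAK4, the last from 12 counts and 1 count. WAK3 held 3 and 2 counts and WAKL10 3 and 1. Of all tested genes 1.69% were at least 2-fold higher in replicate 1 on the scale of CPM plus 1. So were 2 of the 4 members that passed the filter, 1 of 20 salicylic acid genes and 0 of 14 other WAK-like genes. WAK3 and WAKL10 lay too low to reach 2-fold on this scale. Replicate 2 was at least 2-fold higher in 3.52% of all tested genes, 4 of 15 pectin genes and 0 of the 4 members. The first direction is that of the members themselves, so nothing is read from their count. Root markers, summed over 5 genes, stood at 53.2 CPM in replicate 1 and 157 CPM in replicate 2, and the seed storage sum differed as given above; their part in the difference was not tested. WAK1 gave a log2 fold change against untreated Col-0 of 0.50 (SE 0.51, adjusted p = 0.51, edgeR), which was -0.69 without replicate 1. As description, WAK3 was at least 3.47-fold higher than the untreated floor on 5 counts, and WAKL10 gave 1.41 (SE 1.09). No p is given for WAK3 and WAKL10, which passed the filter only through MG132 groups.

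In rpn12a-1 the libraries agreed better, and WAK2 stood at 25.0 and 30.2 CPM, above all 4 untreated Col-0 libraries. Its mean was 27.6 ± 3.71 CPM (SD, n = 2) against 14.2 ± 3.03 CPM (SD, n = 4). The log2 fold change of 1.08 (SE 0.43, 95% interval 0.16 to 1.99) was not called (adjusted p = 0.20, edgeR), although 16.9% of all tested genes were also higher without overlap. Within the libraries with the technical replicate note, to which both rpn12a-1 libraries belong, it was 0.78 (adjusted p = 0.057). WAK1 stood at 1.00 and 0.75 CPM, inside the untreated range, with a log2 fold change of -0.59 (SE 0.62, adjusted p = 0.72). WAK3 and WAKL10 had 0 counts in both libraries, which allows up to 0.0784 CPM over the group, and WAK4 stood at 0.12 and 0.14 CPM. Neither WAK1 nor WAK2 was called by edgeR or by DESeq2, beside 4.9% of all tested genes, while WAK2 had an unadjusted p under 0.05 (edgeR).

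Between the mutants neither WAK1 nor WAK2 was called by either tool, beside 6.31% of all tested genes, and neither had an unadjusted p under 0.05. The difference of rpn12a-1 from rpn10-1 was -1.09 for WAK1 (SE 0.70, 95% interval -2.57 to 0.40) and -0.09 for WAK2 (SE 0.56), on the log2 scale. Errors of this size do not show that the mutants were alike. Among the 5 groups WAK2 thus ran from 24 h (57.9 CPM) through rpn10-1 (35.6 CPM), rpn12a-1 (27.6 CPM) and untreated Col-0 (14.2 CPM) to 3 h (12.8 CPM), where neighbours in the order overlapped except rpn12a-1 and untreated Col-0. For WAK1 the order was 24 h (160 CPM), 3 h (4.46 CPM), rpn10-1 (3.71 CPM), untreated Col-0 (2.07 CPM) and rpn12a-1 (0.876 CPM), where 24 h alone stood clear of its neighbour.

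**Figure D3:**
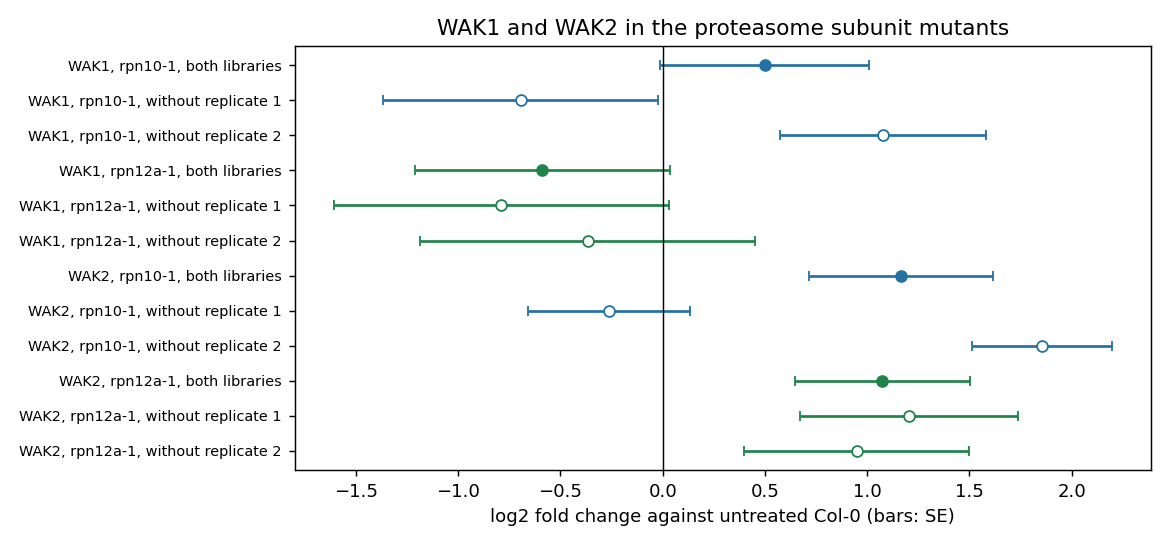
Log2 fold change of WAK1 and WAK2 against untreated Col-0 (horizontal axis, bars for the SE) in rpn10-1 (blue) and rpn12a-1 (green), with both libraries (filled) and without each in turn (open). The WAK2 value in rpn10-1 lies at -0.26 without replicate 1 and at 1.85 without replicate 2, whereas in rpn12a-1 it stays between 0.95 and 1.21.

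Within the 24 h group the members differed between libraries in the same order. WAK1, WAK2, WAK3 and WAKL10 were each highest in replicate 1 and lowest in replicate 4, by 3.32-fold, 2.38-fold, 4.49-fold and 3.36-fold. That order held in 13 of the 20 salicylic acid genes examined and in 13.3% of all tested genes. It also held in 2 of 14 other WAK-like genes, 3 of 16 genes of WAK partners and 1 of 15 pectin genes. Replicates 1 and 2 are without the technical replicate note and replicates 3 and 4 carry it. A difference between these pairs of libraries therefore cannot be told apart from the library set. The summed level of the 20 salicylic acid genes was 1031, 829, 538 and 299 CPM in replicates 1 to 4, and PR1, the classic marker of salicylic acid defence, stood at 357, 272, 44.2 and 15.6 CPM. The spread of WAK1 at 24 h was therefore smaller than that of PR1, which differed 22.9-fold. The 5 root markers summed to 4.07 and 7.96 CPM in replicates 1 and 2 and to 46.9 and 37.3 CPM in replicates 3 and 4, with NRT2.1 at 0 in replicates 1 and 2, against 31.7 to 94.9 CPM in untreated Col-0; their part in the members' spread was not tested. Leaf markers, summed over 4 genes, stood at 11892 to 16469 CPM at 24 h and at 20318 to 32767 CPM in untreated Col-0.

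**Figure D4:**
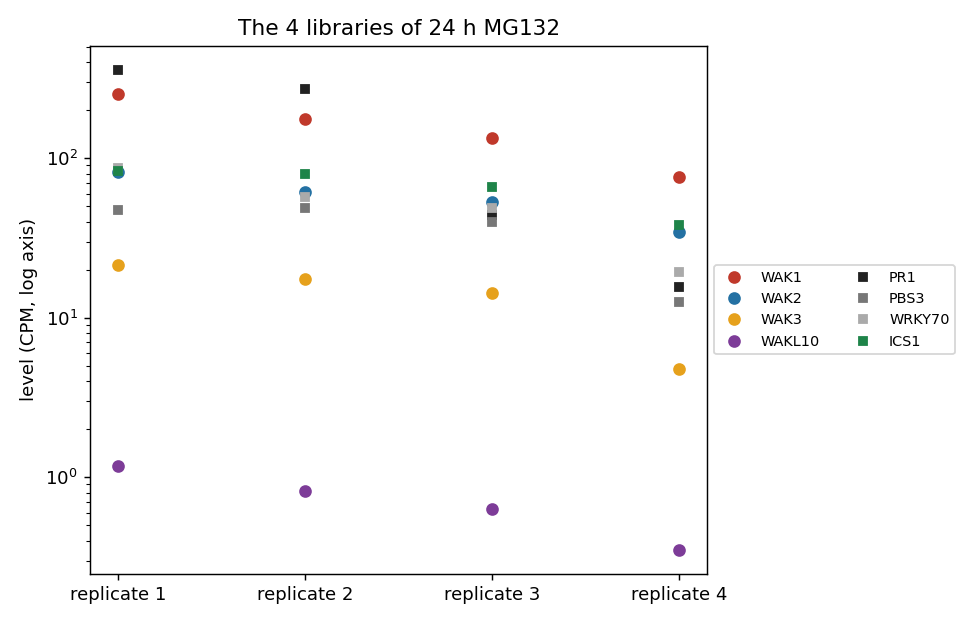
Levels in CPM (log axis) of WAK1, WAK2, WAK3 and WAKL10 (circles) and of PR1, PBS3, WRKY70 and ICS1 (squares) in each of the 4 libraries at 24 h of MG132. Replicate 1 holds the highest and replicate 4 the lowest level of the WAK genes, of PR1, of WRKY70 and of ICS1.

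The genes whose levels followed each member most closely over the 16 libraries were found by Pearson correlation of log2(CPM + 1) among 20460 genes, and are given as description, since the 24 h libraries dominate the values. For WAK1 they were the receptor kinase gene RK3 (r = 0.985; 0.81 CPM untreated and 10.06 CPM at 24 h), ARD3 of methionine salvage (r = 0.981; 0.63 and 121 CPM) and AT3G47480 (r = 0.980; 0.19 and 28.5 CPM). For WAK3 they were the U-box ligase gene PUB54 (r = 0.996; 0.04 and 28.4 CPM), AT4G01180 (r = 0.995) and PBS3, an enzyme gene of salicylic acid synthesis (r = 0.992; 0.14 and 37.1 CPM). WAK2 was followed by RK1 (r = 0.955), the cysteine-rich receptor kinase gene CRK22 (r = 0.929) and the MAP kinase kinase gene MKK3 (r = 0.927), and RK1 shared its higher mean in rpn10-1 (1.33 CPM against 0.03 CPM untreated). WAKL10 was followed by the transporter gene ABCG40 (r = 0.960), the lectin receptor kinase gene AT5G65600 (r = 0.955) and CRK39 (r = 0.954; 0 CPM untreated, 4.61 CPM at 3 h and 1.96 CPM at 24 h). Among the members r was 0.97 for WAK1 with WAK3, 0.79 for WAK2 with WAK3 and 0.76 for WAK1 with WAK2, and it lay between -0.05 and 0.32 for WAKL10 with the array genes.

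Of 19 other WAK-like genes 14 were tested, and at 24 h 3 of them were higher and 0 lower, 21.4% of the 14 beside 26.4% of all tested genes, with a median log2 fold change of 0.09 beside -0.03 over all genes. DESeq2 also called 0 lower, and 3 had an unadjusted p under 0.05 in that direction. AT1G69730 went from 5.72 ± 1.77 to 23.1 ± 9.19 CPM (SD, n = 4 each; log2 fold change 1.97, SE 0.25, adjusted p = 3.9e-05, edgeR). AT1G16260 gave 0.90 (SE 0.22, adjusted p = 0.0070) at 24 h after -0.85 (SE 0.23, adjusted p = 0.020) at 3 h, and AT5G02070 gave 0.88 (SE 0.29, adjusted p = 0.036) at 24 h. The last stood at 10.9, 13.3, 7.17 and 5.68 CPM at 24 h (replicates 1 to 4), overlapping its untreated range of 2.87 to 6.50 CPM. The lowest 24 h library of AT1G16260 (11.58 CPM) lay just under its highest untreated one (11.61 CPM). At 3 h AT1G16260 fell and AT5G66790 rose (0.82, SE 0.24, adjusted p = 0.026), 14.3% of the 14 beside 17.9% of all tested genes; the latter was named after its value was seen.

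WAKL22, known as a gene for resistance to Fusarium oxysporum and the next identifier before WAKL10 on chromosome 1, was lower in both mutants. It stood at 18.1 to 25.1 CPM in untreated Col-0, at 11.1 and 11.2 CPM in rpn10-1 and at 12.0 and 12.7 CPM in rpn12a-1, with no overlap. The log2 fold changes were -0.78 (SE 0.14, adjusted p = 0.0016) and -0.95 (SE 0.14, adjusted p = 0.00055, edgeR). After MG132 it stood at 17.6 to 26.2 CPM at 3 h and 20.5 to 26.6 CPM at 24 h, and both groups overlapped the untreated one. The remaining calls in the mutants were AT1G69730 in rpn10-1 (-1.43, SE 0.36, adjusted p = 0.011) and AT2G23450 in rpn12a-1 (0.46, SE 0.12, adjusted p = 0.042). In each mutant 14.3% of the 14 were thus called, beside 23% of all tested genes in rpn10-1 and 4.9% in rpn12a-1. AT1G69730, higher than untreated at 24 h, was thus lower in rpn10-1.

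The partners reported for WAKs and for oligogalacturonides, 16 genes that were all tested, gave 1 higher and 1 lower call at 24 h, 12.5% of the 16 beside 26.4% of all tested genes. In the mutants 12.5% were called in each, beside 23% of all tested genes in rpn10-1 and 4.9% in rpn12a-1. GRP3, a secreted glycine-rich protein that binds WAK1, gave 0.41 (SE 0.14, adjusted p = 0.041) at 24 h and 1.07 (SE 0.17, adjusted p = 0.0014) in rpn12a-1, where it stood at 1025 and 1077 CPM against 466 to 1000 CPM in untreated Col-0. THE1, a receptor kinase that monitors the wall, gave -0.46 (SE 0.14, adjusted p = 0.021) at 24 h. MPK3, a mitogen-activated protein kinase downstream of oligogalacturonides, gave 0.72 (SE 0.18, adjusted p = 0.035) in rpn12a-1. It stood there at 64.9 and 108 CPM, against 53.2 to 65.3 CPM in untreated Col-0, so replicate 1 lay inside the untreated range. In rpn10-1 PGIP1, an inhibitor of fungal polygalacturonase, gave -1.52 (SE 0.38, adjusted p = 0.011) and the receptor kinase gene FER -0.51 (SE 0.14, adjusted p = 0.016, edgeR throughout), and without rpn10-1 replicate 1 neither direction held a call. At 3 h 3 of the 16 were called, 18.8% beside 17.9% of all tested genes, namely AT4G20830 (0.85), PGIP1 (0.93) and THE1 (-0.58), which were named after their values were seen.

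Among genes that make, modify or cut pectin, the ligand of the WAKs, those called at 24 h were lower than in untreated seedlings. Of 17 genes 15 were tested, and 5 were lower and 0 higher (also 0 by DESeq2 and at an unadjusted p under 0.05), 33.3% beside 26.4% of all tested genes, with a median log2 fold change of -0.27. They were ADPG2, a polygalacturonase (-3.28, SE 0.81, adjusted p = 0.0087), AT3G47380 (-1.65, SE 0.37, adjusted p = 0.0046) and AT5G46960 (-2.80, SE 0.94, adjusted p = 0.039) of the invertase and pectin methylesterase inhibitor family, AT3G49220 (-0.39, adjusted p = 0.034) and PMR6, a pectate lyase-like gene (-0.26, adjusted p = 0.030, edgeR throughout). At 3 h 5 were lower and 1, PME3, was higher, 40% beside 17.9% of all tested genes. In rpn10-1 3 were higher and 1 lower, 26.7% beside 23% of all tested genes, PME35 with 1.61 (SE 0.40, adjusted p = 0.010) and ADPG2 with 2.79 (SE 0.71, adjusted p = 0.013, edgeR) among them. ADPG2 stood at 0.82 CPM in rpn10-1 replicate 1 and 5.77 CPM in replicate 2, against 0.33 to 2.02 CPM in untreated Col-0, so replicate 1 lay inside the untreated range. In rpn12a-1 2 were higher, 13.3% beside 4.9% of all tested genes, PME35 with 1.41 (SE 0.37, adjusted p = 0.042) and QUA2 with 0.49 (SE 0.12, adjusted p = 0.028).

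Salicylic acid genes, the hormone pathway in which WAK1 is best known, were higher at 24 h and not at 3 h. At 24 h 18 of the 20 were called higher and 0 lower (19 and 0 by DESeq2; 0 lower at an unadjusted p under 0.05), 90% beside 26.4% of all tested genes, with a median log2 fold change of 2.50. PR1 gave 11.28 (SE 0.52) and PBS3 7.91 (SE 0.55). Both passed the filter on low counts only through the 24 h group, so no p is given for them. The count of 18 includes such genes and is given as description. WRKY70, a transcription factor of the pathway, gave 4.25 (SE 0.33, adjusted p = 3.6e-07, edgeR). SARD1, which switches on salicylic acid synthesis, gave 5.06 (SE 0.47, adjusted p = 1.9e-06, edgeR). The list was chosen with earlier results of these data known. At 3 h 0 were called by edgeR, beside 17.9% of all tested genes, 1 was lower by DESeq2, and 3 had an unadjusted p under 0.05, all lower. ICS1, the main enzyme of the pathway, stood at 17.5 to 21.2 CPM untreated, 18.6 to 20.9 CPM at 3 h and 38.2 to 82.6 CPM at 24 h. WAK1, WAK2 and WAK3 were likewise highest at 24 h, and WAKL10 at 3 h. In rpn10-1 3 were higher and 1 lower, 20% beside 23% of all tested genes, but 0 and 0 without replicate 1. In rpn12a-1 3 were higher (FMO1, CBP60G and PR1), 15% beside 4.9% of all tested genes. Nothing is read from the call of PR1, on 11 counts, since it passed the filter only through the 24 h group.

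Of the other tested genes that flank the array or lie inside it, SEC5B alone was called higher at 24 h by edgeR. AT1G21260, a pseudogene between WAK1 and WAK2, stood at 2.04 to 3.53 CPM untreated and 2.81 to 4.82 CPM at 24 h (log2 fold change 0.36, 95% interval -0.12 to 0.83, adjusted p = 0.26, edgeR). AT1G21245, between WAK3 and WAK1, had 0 counts in every library, and the pseudogene AT1G21220, between WAK4 and WAK5, had 12 counts untreated and 6 at 24 h. AT1G21200, before WAK4, stood at 10.8 to 14.1 CPM untreated and 8.98 to 12.4 CPM at 24 h. Over 31 neighbouring genes around the array and around WAKL10, 21 were tested, and 2 were called at 24 h, 9.52% beside 26.4% of all tested genes: AT1G21140, annotated as vacuolar iron transporter-like, with -1.04 (SE 0.24, adjusted p = 0.0058) and SEC5B of the exocyst with 0.41 (SE 0.12, adjusted p = 0.022, edgeR). Of the 21, DESeq2 called 3 higher and 1 lower, and 3 higher and 4 lower had an unadjusted p under 0.05. WAK1, WAK2 and WAK3 were thus high between neighbours of which edgeR called none with a rise beyond that of SEC5B.

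In rpn10-1 5 of these 21 neighbours were called, 23.8% beside 23% of all tested genes. AT1G21320, beyond the WAK2 end of the array, fell from 2.64 ± 0.374 CPM in untreated Col-0 (SD, n = 4) to 0.298 ± 0.159 CPM in rpn10-1 (SD, n = 2), with a log2 fold change of -3.12 (SE 0.43, adjusted p = 0.00015, edgeR). AT1G21140, before WAK4, gave -1.73 (SE 0.34, adjusted p = 0.0028), while in rpn12a-1 both stood at or above the untreated mean, at 3.59 ± 0.249 and 3.91 ± 0.541 CPM (SD, n = 2 each). The other calls in rpn10-1 were AT1G79640 (1.25), WAKL22 (-0.78) and WRI4 (-0.66), and in rpn12a-1 WAKL22 alone was called. Both sides of the array therefore held a gene that was lower in rpn10-1. Of the array genes edgeR called 0 there, while DESeq2 called WAK2, and WAK3 on few counts.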

How the data were processed

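RNA-seq counts were analysed for 6 genes in 16 libraries grouped by the labels. The deposited files hold raw read counts per gene. The submitters' processing notes name HTSeq, TopHat, Bowtie2, Trimmomatic and edgeR and the genome TAIR10. The sources used here give neither versions, nor the strand setting, nor the treatment of multiply mapped reads. RefSeq TAIR10.1 held 32835 of the 33602 identifiers and gave names and sequences.

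Counts were scaled by TMM and filtered with filterByExpr (minimum count 10), which left 21205 genes, in edgeR 4.0.16 under R 4.3.3. A negative binomial model with group and library set was fitted to all libraries, and genes were called with the two-sided quasi-likelihood F-test at an adjusted p under 0.05. The SE is the log2 fold change over the square root of F, and is approximate near 0. Floors are 3 counts per group. Alternatives included DESeq2 1.42.0. No 2 libraries were identical.

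The members and the gene lists were chosen with earlier results of these data known. Named from each list were up to 4 genes with the smallest p at 24 h and up to 2 in each mutant. In simulated counts for rpn10-1, 50% of 2-fold changes were called over 20487 genes, and for 3 h of MG132 72% over 20482. Changes were placed only in genes with more untreated counts than WAK1, WAK3 and WAKL10 had. No library set effect was simulated, so these rates do not apply to those 3 genes.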

Additional observations from a re-analysis of the deposited data

Results flagged for a closer look

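WAK4 in replicate 3 of the 24 h group, at 0.571 CPM (9 counts), lay far from the other 3 libraries of its group, which stood at 0.181 to 0.214 CPM. It was the single such value among 10 sets of 4 libraries examined, and chance gives about 1 in 20. The gene gave 43 counts in all.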

How the results depend on the processing

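The cause of the following changes was not tested, and nothing is read from calls of WAK3 or WAKL10 within the counts of members. Members called at 3 h, a count that includes WAKL10 and from which nothing is read, were 2 (WAK1 as well) in place of 1 with DESeq2, with no filter and with the 2 groups alone. In rpn10-1 they were 2 with DESeq2, 3 with no filter, 1 with no library set term and 0 to 2 without each library, in place of 0. In rpn12a-1 they were 1 (WAK2) with no filter and with the 2 groups alone, and between the mutants 1 with no filter and 0 to 1 without each library. Without each library in turn, directions reversed for WAK1 in rpn10-1 (log2 fold change -0.69 to 1.08) and between the mutants (-1.66 to 0.11) and for WAK2 in rpn10-1 (-0.26 to 1.85) and between the mutants (-0.78 to 1.34), in each case without rpn10-1 replicate 1. WAK2 also reversed between the mutants without rpn12a-1 replicate 1 (0.043), at 3 h without untreated replicate 4 (range -0.36 to 0.037) and at 3 h within the libraries without the note (0.32).

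Related genes called at 3 h were 11, but 6 with no library set term, 6 within the libraries with the note, 1 within those without it and 6 to 10 without each library. In rpn10-1 they were 12, and 5 to 14 without each library (5 without untreated replicate 1, 6 without rpn10-1 replicate 1). In rpn12a-1 they were 9, and 4 within the libraries with the note, 5 with the 2 groups alone and 2 to 7 without each library (2 without rpn12a-1 replicate 2). Neighbouring genes called at 24 h against untreated were 2, and 4 with DESeq2, with no filter and within the libraries with the note, 5 within those without it and with the 2 groups alone, and 1 to 4 without each library (1 without untreated replicate 2, 4 without 24 h replicate 4). Against 3 h they were 3, and 5 with no filter and without the note, 1 with the note and 1 to 5 without each library (1 without 24 h replicate 1 or 3 h replicate 2, 5 without 24 h replicate 4). In rpn10-1 they were 5, and 8 within the libraries without the note and 3 to 6 without each library (3 without rpn10-1 replicate 1); in rpn12a-1 1, and 2 with the replicate block.

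Same-numbered libraries did not deviate together throughout (correlation -0.19 to 0.56 over 12 pairs, 6 of 12 libraries closest to their own number). With the replicate block the calls in rpn12a-1 rose from 1039 to 2124 over all genes, and members called stayed at 0 in each mutant. Over all settings, genes called ran from 1228 to 4429 at 3 h, 3633 to 6424 at 24 h, 1924 to 5469 between the times, 2235 to 5944 in rpn10-1, 495 to 2124 in rpn12a-1 and 261 to 3025 between the mutants. Levels under 0.0564 to 0.118 CPM per group were below the depth.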
